A study of Sus scrofa with 6 samples.

Results

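Mitochondrial ribosomal proteins are the nuclear-encoded subunits of the mitoribosome, the ribosome inside mitochondria. Members were taken as the genes of the deposited table whose symbol is MRPL or MRPS followed by a number, which gave 56 of 10915 genes with values, 35 of the large and 21 of the small subunit. They carried 55 different symbols, because MRPS9 was listed under 2 identifiers. All 56 passed the filter on low values, a mean of at least 1 FPKM (fragments, corrected for the length of the transcript and the size of the library) over the 6 libraries.

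The cells were primary porcine endometrial epithelial cells, which line the uterus, cultured from slaughterhouse uteri and used at passage 3. The exosome group (3 libraries) received 10 µg per well, for 48 h, of membrane vesicles precipitated from the sperm-rich fraction of boar seminal fluid. The control group (3 libraries) received none. The labels name no other agent or genetic change in either group, and no strain or age. They give n = 3 for the seminal fluid, without saying whether same-group libraries trace to different uteri, wells or ejaculates. The p-values thus reflect only library-to-library spread, part or all of which may be technical.

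The mitoribosome translates the messenger RNAs of the mitochondrial genome, which encode subunits of the respiratory chain and ATP synthase. Its RNAs are made in the mitochondrion, while all of its proteins are made in the cytosol and imported. The large subunit forms peptide bonds and holds the tunnel through which the new chain leaves, and the small subunit binds and decodes the messenger RNA. Some subunits have counterparts in the bacterial ribosome and others are found only in mitochondria.

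The labelled cell type was checked against marker genes. Of 8 markers of endometrial epithelium 7 were listed, with a summed level of 8133 to 8941 FPKM in the exosome and 9203 to 9532 FPKM in the control libraries. CDH1 was not among the genes tested. Of the 7, 4 were lower at an unadjusted p under 0.05 (57.1%, against 7.5% of all genes), and 0 passed in limma. CLDN4 had a log2 change of -0.35, and TACSTD1, at 0.05, was the 1 marker above 0. Of 8 markers of stroma and fibroblasts 5 were listed, at 2274 to 2494 FPKM in the exosome and 2788 to 3042 FPKM in the control libraries, most of it from CD90 and VIM. All 5 lay below 0, and CD90 had a log2 change of -0.33 (limma adjusted p = 0.134). Of 6 leukocyte markers 2 were listed, at 7.58 to 10.6 FPKM in the exosome and 8.74 to 10.7 FPKM in the control libraries, and PTPRC and CD3E were not among the listed genes. Of 4 endothelial markers only KDR was listed, at 0.968 to 1.16 FPKM in the exosome and 1.26 to 1.96 FPKM in the control libraries. The part of these marker differences in the results below was not tested. In whole cultures, fewer cells of a type and less RNA per cell cannot be told apart.

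The members spanned a 19.8-fold range of levels, with a median of 40.6 FPKM over the 6 libraries against 15.0 FPKM for all 10846 genes tested. In the large subunit, MRPL20 (ENSSSCG00000003347), a counterpart of a bacterial large-subunit protein, was the most abundant. It was at 158, 155 and 156 FPKM in the exosome libraries and at 166, 153 and 141 FPKM in the control libraries. The exosome values lay within the control range. MRPL40 (ENSSSCG00000022749), a mitochondria-specific protein of the central protuberance, averaged 136 ± 4.89 FPKM in the exosome and 133 ± 6.01 FPKM in the control libraries (SD, n = 3 each, here and below). MRPL28 averaged 114 ± 7.40 FPKM in the exosome and 111 ± 5.91 FPKM in the control libraries.

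The least abundant large-subunit member was MRPL19 (ENSSSCG00000021007), with a bacterial counterpart. It was at 8.80, 7.08 and 8.98 FPKM in the exosome libraries and at 7.58, 7.37 and 7.03 FPKM in the control libraries. Exosome replicates 1 and 3 lay above every control library and exosome replicate 2 lay among the controls. MRPL32, which is trimmed by the m-AAA protease of the inner membrane before it joins the ribosome, averaged 9.25 ± 0.792 FPKM in the exosome and 9.28 ± 0.502 FPKM in the control libraries. MRPL50, a mitochondria-specific protein, averaged 10.1 ± 0.319 FPKM in the exosome and 9.19 ± 0.526 FPKM in the control libraries.

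In the small subunit the order was led by MRPS25 (ENSSSCG00000023600), a mitochondria-specific protein, at 150.1, 135 and 154 FPKM in the exosome libraries and 134, 146 and 128 FPKM in the control libraries. The groups overlapped. MRPS34, variants of which cause a mitochondrial translation disease in humans, averaged 115 ± 9.03 FPKM in the exosome and 122 ± 5.02 FPKM in the control libraries. MRPS6 averaged 109 ± 6.00 FPKM in the exosome and 113 ± 2.92 FPKM in the control libraries.

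At the low end of the small subunit, MRPS36 averaged 9.08 ± 0.836 FPKM in the exosome and 8.89 ± 0.768 FPKM in the control libraries. MRPS36 is now known as a subunit of the 2-oxoglutarate dehydrogenase complex rather than of the ribosome, and it was the lowest of the 21. MRPS22, a mitochondria-specific protein mutated in human mitochondrial disease, averaged 11.3 ± 0.474 FPKM in the exosome and 10.6 ± 0.321 FPKM in the control libraries. MRPS35 averaged 20.5 ± 3.21 FPKM in the exosome and 19.0 ± 0.527 FPKM in the control libraries.

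**Figure D1:**
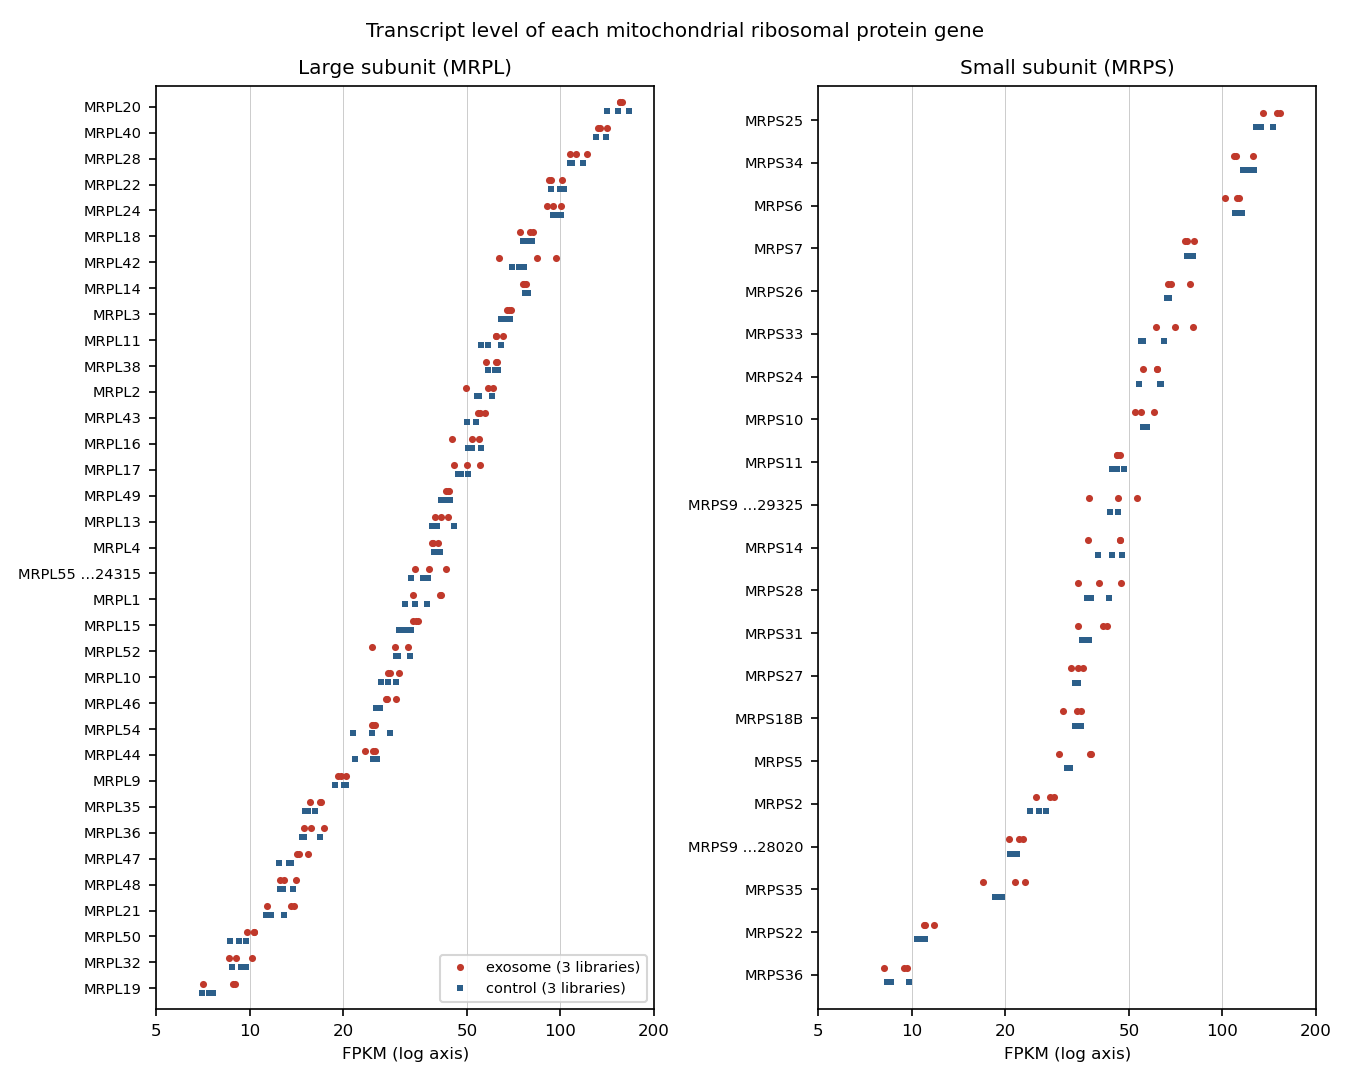
Level of each member in FPKM on a log axis, large subunit left and small subunit right, ordered by the mean over all libraries. Red circles are the 3 exosome libraries and blue squares the 3 control libraries of each gene; the order of the genes spans 7.81 FPKM (MRPL19) to 155 FPKM (MRPL20), and the groups lie close together for nearly every gene.

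The comparison of the groups addresses which transcripts of these cultured cells differ after 48 h with the precipitated vesicles. No member passed the test over all genes: 0 of 56 had an adjusted p under 0.05 (limma, Benjamini-Hochberg over 10846 genes), where percent called over all genes was 0, and the smallest adjusted p of a member was 0.378. At an unadjusted p under 0.05 there were 2 higher members (3.57%, against 5.06% of all genes) and 0 lower members (against 7.5% of all genes). The 95% confidence interval of every member's change lay within 1.5-fold in either direction, which held for 93.5% of all genes tested. The bounds farthest from 0 were a log2 change of 0.51 for MRPS33 and -0.33 for MRPL52. A fold change on the log2(FPKM + 1) scale understates the change of low genes.

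The 56 changes were small and lay mostly above 0. The median log2 change was 0.03, with a range from -0.10 (MRPL52) to 0.26 (MRPS33), against a median of -0.0023 over all genes. Leaving out 1 library moved the member median, which was lowest at 0.011 without control replicate 3 and highest at 0.063 when exosome replicate 2 was omitted. It was 0.00079 without replicate 3 of both groups. There were 39 members above 0 and 17 below, or 69.6% above 0, against 49.2% of all genes. The members move together across libraries, as the values by library below show, so these 39 are not separate results. In the lists described below, the share above 0 was 64.5% of cytosolic ribosomal protein genes and 70.0% of mitoribosome assembly genes. It was 78.6% of mitochondrial translation factors, 53.8% of mitochondrial tRNA synthetases and 0% of mitochondrially encoded messenger RNAs. The 3 exosome libraries lay above the 3 control libraries in 5 members (8.93%, against 8.29% of all genes) and below them in 0 (against 10.4% of all genes).

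**Figure D2:**
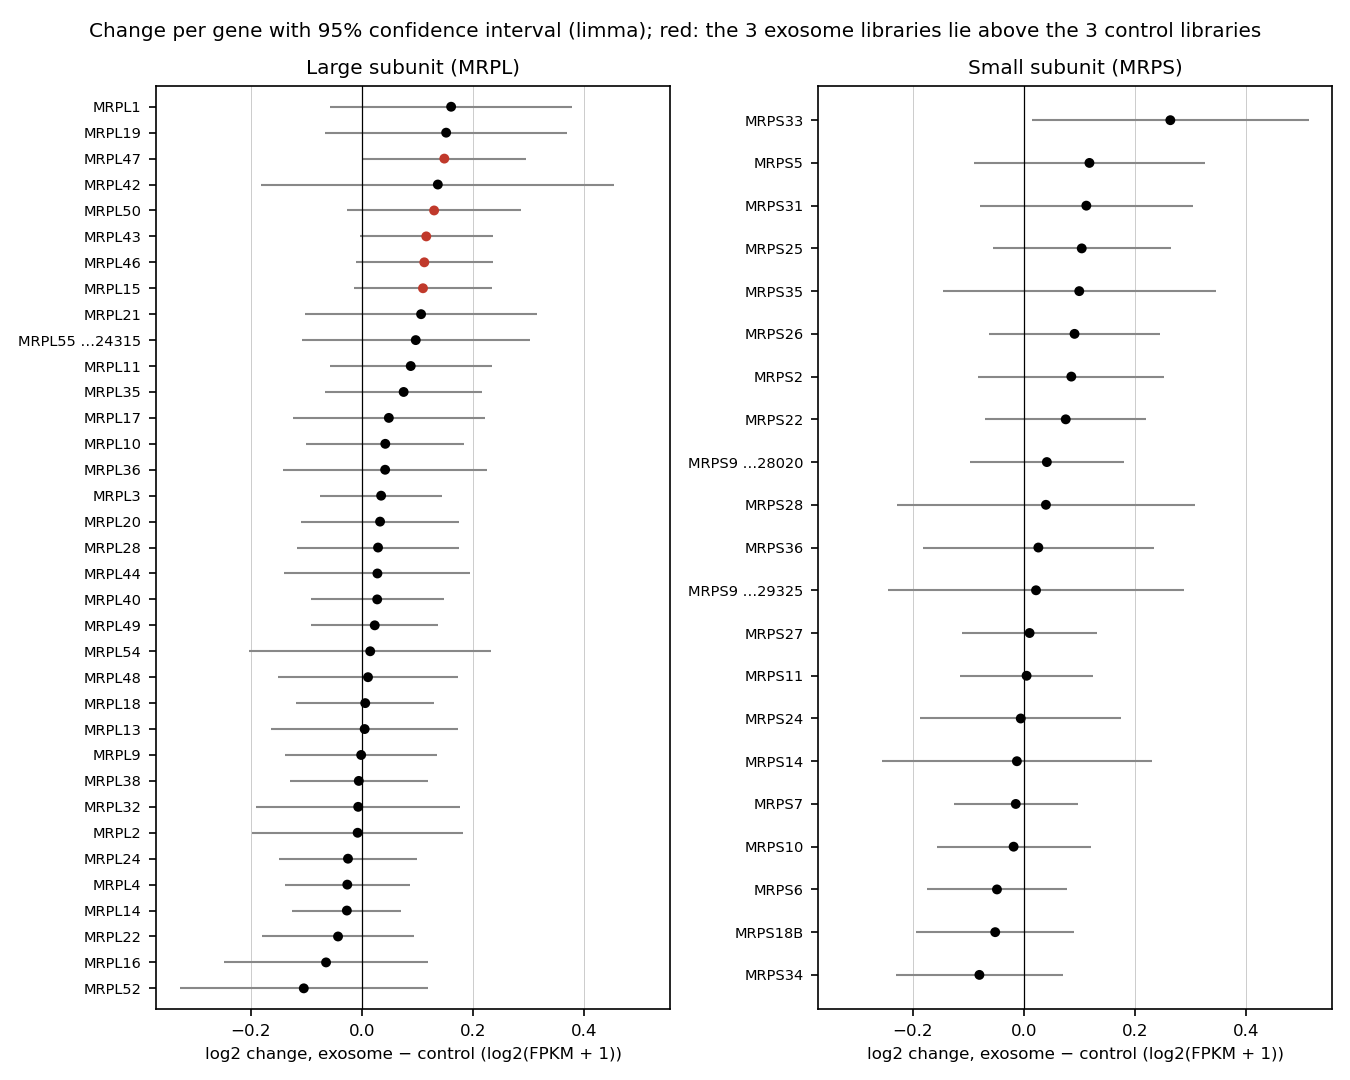
Log2 change of each member, exosome minus control, on the log2(FPKM + 1) scale (points) with its 95% confidence interval from limma (bars). Red points mark the 5 members whose 3 exosome libraries lay above all 3 control libraries; the intervals of MRPS33 and MRPL47 lie above 0 before adjustment, and the highest bound is 0.51 (MRPS33).

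The largest change was that of MRPS33 (ENSSSCG00000013470; RefSeq, Sscrofa11.1, chr18:8883439-8894473), a mitochondria-specific small-subunit protein. It was at 80.1, 60.9 and 70.3 FPKM in the exosome libraries and at 65.1, 55.5 and 54.5 FPKM in the control libraries. Exosome replicates 1 and 3 were the highest of the 6, and exosome replicate 2 lay below control replicate 1. The log2 change was 0.26 with an SE of 0.11 and did not pass (limma adjusted p = 0.378, unadjusted p = 0.0404).

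MRPL47 (ENSSSCG00000011763; chr13:117626846-117656388), which sits near the exit of the peptide tunnel, was at 15.3, 14.1 and 14.4 FPKM in the exosome libraries and 13.5, 13.4 and 12.4 FPKM in the control libraries. All 3 exosome libraries lay above the controls, by a gap smaller than the range within either group. The log2 change was 0.15 with an SE of 0.06 and did not pass (limma adjusted p = 0.392). MRPL43, a mitochondria-specific protein, was at 54.4, 55.1 and 57.3 FPKM in the exosome libraries and 53.6, 49.9 and 50.2 FPKM in the control libraries. Here too the groups did not overlap, with exosome replicate 1 and control replicate 1 close together (log2 change 0.12, limma adjusted p = 0.405).

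MRPL46, of the central protuberance, was at 29.5, 27.6 and 27.3 FPKM in the exosome libraries and 26.2, 26.1 and 25.5 FPKM in the control libraries. MRPL15, with a bacterial counterpart, was at 34.3, 33.6 and 34.7 FPKM in the exosome libraries and 33.1, 30.2 and 31.6 FPKM in the control libraries. In both genes the groups did not overlap, and neither passed (limma adjusted p = 0.425 and 0.439, log2 change 0.11 each). MRPL50, described above at the low end of the levels, completed the 5 members without overlap (log2 change 0.13, limma adjusted p = 0.464). All 5 belong to the large subunit, and whether the subunits differ in this count was not tested.

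Of the other small-subunit genes, 4 had the next smallest p among those above 0, and in each the groups overlapped. MRPS25 (values above) and MRPS26 had log2 changes of 0.10 and 0.09. MRPS31 was at 41.3, 34.4 and 42.6 FPKM in the exosome libraries and 36.2, 37.3 and 35.4 FPKM in the control libraries. MRPS5, with a bacterial counterpart, was at 37.4, 29.8 and 37.7 FPKM in the exosome libraries and 31.6, 32.4 and 31.9 FPKM in the control libraries. In MRPS31 and MRPS5 alike, exosome replicates 1 and 3 lay above every control and exosome replicate 2 below every control, so the 2 exosome extremes enclosed the whole control group. Their log2 changes were 0.11 and 0.12, and neither passed (limma adjusted p = 0.600 and 0.610).

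Among members below 0, MRPL52, of the central protuberance, was at 29.3, 24.6 and 32.2 FPKM in the exosome libraries and 32.8, 29.6 and 30.0 FPKM in the control libraries. Exosome replicate 2 was the lowest of the 6, and the groups overlapped (log2 change -0.10, limma adjusted p = 0.682). The next large-subunit members by p were MRPL16, MRPL22, MRPL14 and MRPL4, with log2 changes from -0.06 to -0.03 and adjusted p-values in limma from 0.771 to 0.857. MRPL22 lines the peptide tunnel. In the small subunit, MRPS34, MRPS6, MRPS18B, MRPS7 and MRPS10 had log2 changes of -0.08, -0.05, -0.05, -0.01 and -0.02. MRPS6, MRPS7 and MRPS10 have bacterial counterparts.

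The large and the small subunit kept a similar ratio in every library. Summed over its 35 members, the large subunit was at 1761, 1649 and 1775 FPKM in the exosome libraries and at 1757, 1669 and 1649 FPKM in the control libraries. The 21 small-subunit members summed to 1135, 1049 and 1153 FPKM in the exosome libraries and to 1115, 1090.0 and 1050.0 FPKM in the control libraries. The ratio of the sums, large over small, was 1.55, 1.57 and 1.54 in the exosome libraries and 1.58, 1.53 and 1.57 in the control libraries. The exosome ratios lay inside the control range.

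Per gene, the large subunit averaged 49.4 ± 1.96 FPKM in the exosome and 48.3 ± 1.64 FPKM in the control libraries. The small subunit averaged 53.0 ± 2.66 FPKM per gene in the exosome and 51.7 ± 1.55 FPKM in the control libraries. The median log2 change was 0.03 for each subunit, with 25 of 35 large-subunit and 14 of 21 small-subunit members above 0. The difference of the medians, large minus small, was 0.0030. Its sign was not stable. The difference was -0.0018 with subunits by place in the solved mitoribosome, which took out MRPS36 and left the large-subunit median unchanged. With the 4 unnamed rows described below added, the difference was -0.0052. Without exosome replicate 2 the small-subunit median was 0.093 and the difference was -0.046.

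The libraries differed more from one another than the groups did. Relative to the control mean, the member median was at 0.06, -0.03 and 0.07 on the log2 scale in exosome replicates 1, 2 and 3, and at 0.05, -0.0078 and -0.04 in control replicates 1, 2 and 3. Exosome replicates 1 and 3 and control replicate 1 were high, and exosome replicate 2 lay with control replicates 2 and 3. Exosome replicate 2 was the lowest exosome library in 43 of 56 members (76.8%), against 37.7% of all genes tested and 33.9% of cytosolic ribosomal protein genes. Control replicate 1 was the highest control library in 39 of 56 members (69.6%), against 36.5% of all genes and 66.1% of cytosolic ribosomal protein genes. No label gives a batch that would separate these libraries.

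**Figure D3:**
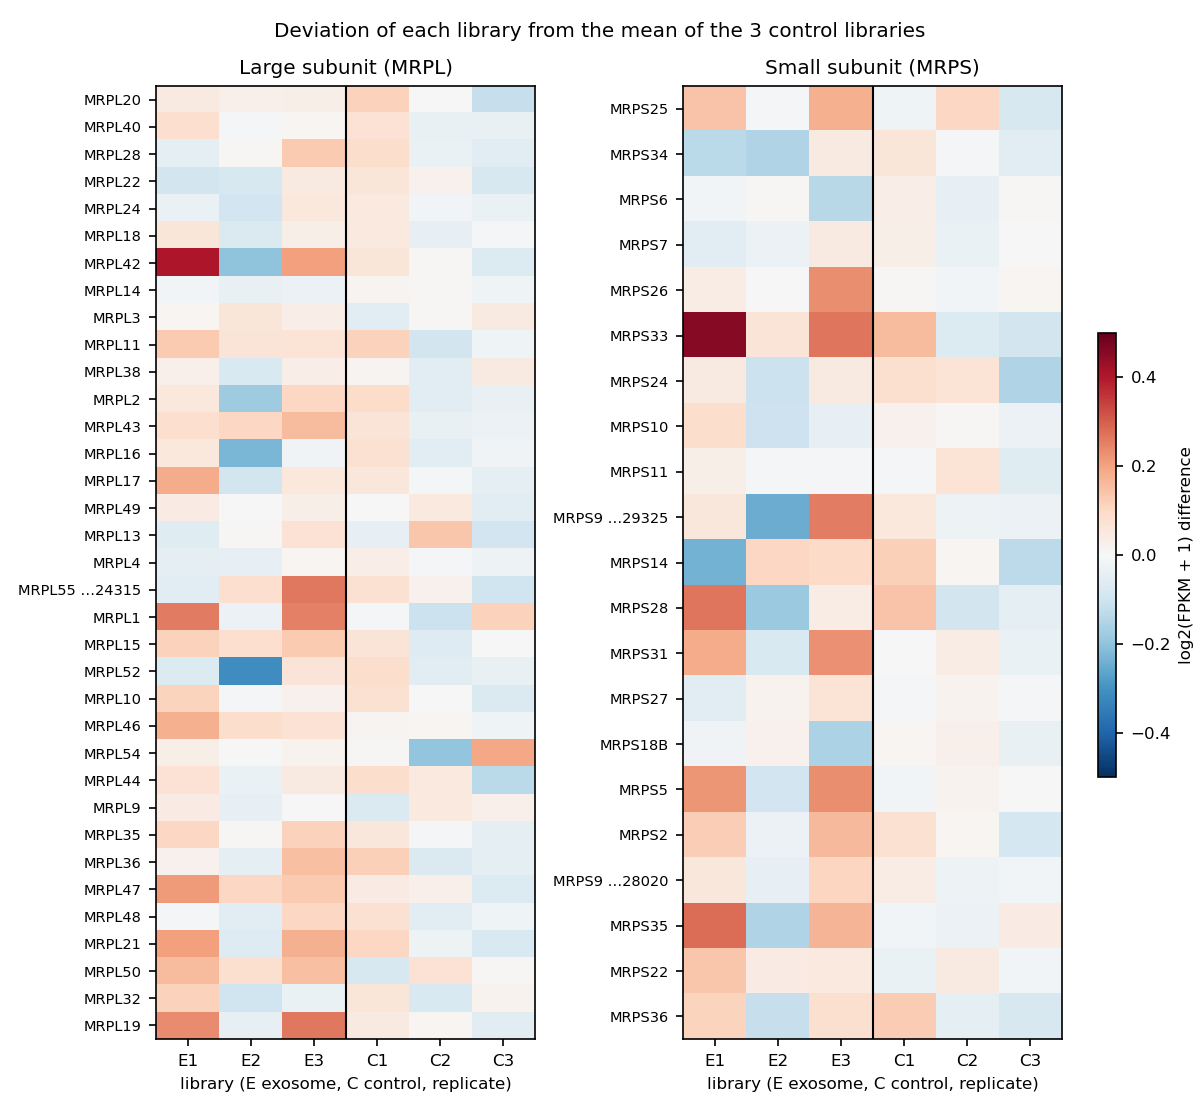
Deviation of each library (columns, exosome replicates 1 to 3 left and control replicates 1 to 3 right) from the mean of the 3 control libraries, per member, as a difference of log2(FPKM + 1). Red is higher and blue lower; exosome replicate 2 is the lowest exosome library in 43 of the 56 members, and MRPS33 and MRPL42 hold the darkest cells, both in exosome replicate 1.

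The number of members at an unadjusted p under 0.05 depended on single libraries. The 2 higher members became 0 without control replicate 2, control replicate 3, exosome replicate 1 or exosome replicate 3, and 1 lower member appeared without exosome replicate 3. There were 4 higher members without control replicate 1. Leaving out exosome replicate 2 raised the number of members at an unadjusted p under 0.05 to 10 higher (17.9%, against 10.2% of all genes) and 0 lower (against 11.8%). That library was the lowest exosome library in 43 of the 56 members, so its omission by itself raises their exosome mean. None of the 56 passed at an adjusted p under 0.05 in limma even so, while 2.74% of all genes did. The smallest adjusted p-values in limma were then 0.0632 for MRPS5, 0.0746 for MRPL42, 0.0831 for MRPS31 and 0.0901 for MRPS33. MRPL42 was chosen after its values were seen. It was at 97.0, 63.3 and 84.3 FPKM in the exosome libraries and 76.2, 73.3 and 69.6 FPKM in the control libraries. Its exosome libraries enclosed the whole control group, as in MRPS5 and MRPS31.

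Within the large subunit, members were grouped by the place of the protein. Of the stalk proteins, which recruit translation factors, 3 of 5 were found (MRPL10, MRPL11 and MRPL54), with a median log2 change of 0.04. Of the central protuberance 7 of 8 were found, with a median of 0.01, and of the proteins around the peptide exit tunnel 5 of 7, with a median of 0.03. MRPL47 was the 1 gene of these groups at an unadjusted p under 0.05.

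By number alone, MRPL1 to MRPL36 and MRPS1 to MRPS21 have bacterial counterparts. MRPS24, MRPL47 and MRPL55 are also counterparts of bacterial proteins under the newer naming, and they were moved after their values were seen. Only these 3 were moved, so the classes do not follow that naming throughout. MRPS36 stayed in the mitochondria-specific class. The 21 mitochondria-specific members then had a median log2 change of 0.04, with 18 above 0, and the 35 with a bacterial counterpart a median of 0.02, with 21 above 0. Before the move the medians were 0.06 (24 members) and 0.01 (32 members). The difference between these classes was not tested. Within the mitochondria-specific class, 3 members had groups that did not overlap, all higher (14.3%), and in the other class 2 (5.71%), against 8.29% higher and 10.4% lower over all genes.

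Of the S18 paralogs, 3 proteins that derive from 1 bacterial ancestor, only MRPS18B carried its symbol in the deposited table. It averaged 33.2 ± 2.18 FPKM in the exosome and 34.4 ± 0.783 FPKM in the control libraries. Another row without a symbol is named MRPS18A in the reference table. It was at 4.03, 6.67 and 4.71 FPKM in the exosome libraries and 5.01, 5.99 and 2.94 FPKM in the control libraries, lower than any of the 56 members, with overlapping groups (limma adjusted p = 0.835). By the solved structure of the mammalian mitoribosome MRPS18A belongs to the large subunit, despite its symbol. Of 3 more unnamed rows, MRPL30 averaged 61.1 ± 2.01 FPKM in the exosome and 61.8 ± 2.92 FPKM in the control libraries, and MRPL39 44.0 ± 2.02 and 43.9 ± 0.494 FPKM in the same order. The third carried the name MRPL55 for a second time, with 19.9 ± 2.89 FPKM in the exosome and 21.1 ± 1.06 FPKM in the control libraries (log2 change -0.09), where the row with the symbol had a log2 change of 0.10. Neither passed, and values split over 2 identifiers are uncertain.

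MRPS9 was likewise listed under 2 identifiers, while RefSeq places 1 gene of that name at chr3:49626796-49681437. The first (ENSSSCG00000029325) was at 46.1, 37.2 and 53.1 FPKM in the exosome libraries and 46.0, 43.5 and 43.4 FPKM in the control libraries. The second (ENSSSCG00000028020) was at 22.1, 20.5 and 22.9 FPKM in the exosome libraries and 21.7, 20.8 and 20.96 FPKM in the control libraries. In both rows exosome replicate 2 was lowest and exosome replicate 3 highest, and neither passed (limma adjusted p = 0.960 and 0.806).

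RefSeq holds 53 of the 55 member symbols on 17 chromosomes of Sscrofa11.1, 1 (MRPS2) without a chromosome, and none for MRPL21. MRPS11 (chr1:191310547-191321951) and MRPL46 (chr1:191321990-191331320) are the closest neighbours, with 38 bases between them. MRPS11 was at 46.9, 45.7 and 45.7 FPKM in the exosome libraries and 45.8, 48.2 and 44.0 FPKM in the control libraries, so its groups overlapped, whereas those of MRPL46 (values above) did not. Their log2 changes were 0.0051 and 0.11, and the difference between the neighbours was not tested. The next closest pair of members, MRPL38 and MRPS7, lies 530437 bases apart.

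Other genes that build or serve the mitoribosome are given by list, each read against all genes tested, where the unadjusted p was under 0.05 for 5.06% in the higher and 7.5% in the lower direction. Differences between these lists and the members were not tested. Of 7 mitoribosomal proteins under other symbols 4 were found, with a median log2 change of 0.04 and 0 at an unadjusted p under 0.05. Among them PTCD3, an RNA-binding small-subunit protein, and CHCHD1 had log2 changes of 0.14 and 0.06. Of 26 genes of mitoribosome assembly and rRNA modification 20 were found, with a median of 0.06. Of these, 2 were higher at an unadjusted p under 0.05 and 0 were lower (10.0% of the list), and none passed in limma. The exosome libraries lay above the controls in 6 of the 20 and below them in 1 (35.0%, against 18.7% of all genes in either direction). For the lists below, this share was 14.3% of translation factors, 21.4% of transcription, DNA and RNA processing genes and 15.4% of tRNA synthetases. It was 0% of the regulators, 8.06% of the cytosolic ribosomal proteins and 88.9% of the mitochondrially encoded messenger RNAs. Among the mitoribosomal proteins under other symbols it was 0%.

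NOA1, a GTPase of small-subunit assembly, was at 16.2, 16.9 and 17.5 FPKM in the exosome libraries and 15.1, 13.3 and 14.1 FPKM in the control libraries. All 3 exosome libraries lay above the controls, exosome replicate 2 included (log2 change 0.24, limma adjusted p = 0.276). The other was RNMTL1, a methyltransferase of the large-subunit rRNA, with a log2 change of 0.18 (limma adjusted p = 0.397).

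Of 17 translation factors 14 were found, with a median log2 change of 0.07, with 1 higher at an unadjusted p under 0.05 and 0 lower (7.14% of the list). LRPPRC, which stabilises mitochondrial messenger RNAs, was at 81.6, 69.9 and 81.1 FPKM in the exosome libraries and 64.6, 65.1 and 64.4 FPKM in the control libraries. The groups did not overlap, and the gene did not pass (log2 change 0.25, limma adjusted p = 0.251). C12orf65, of the release factor family, had a log2 change of 0.33 (limma adjusted p = 0.422). It was at 8.49, 8.11 and 10.5 FPKM in the exosome libraries and 5.25, 7.96 and 7.92 FPKM in the control libraries. Control replicate 1 was the lowest of the 6 and exosome replicate 3 the highest.

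Of 16 genes of mitochondrial transcription, DNA and RNA processing 14 were found, with a median of 0.09, 3 higher at an unadjusted p under 0.05 and 0 lower (21.4% of the list). C10orf2, the Twinkle helicase of mitochondrial DNA, and TRMT10C, a subunit of mitochondrial RNase P, had log2 changes of 0.23 and 0.21 (limma adjusted p = 0.302 and 0.331). Of 17 mitochondrial aminoacyl-tRNA synthetases 13 were found, with a median of 0.0048, 0 higher and 1 lower (VARS2, log2 change -0.21), and AARS2 was at 0.19. Of 9 regulators of nuclear genes for mitochondria 6 were found, with a median of 0.08 and 0 at an unadjusted p under 0.05. The smallest p-values there were those of GABPB1 and PPARGC1B, both with log2 changes of 0.16.

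The cytosolic ribosomal protein genes, the closest like set, had a median log2 change of 0.01 over 62 rows, 40 of them above 0. The set was taken by symbol and holds RPL7L1 and RPS19BP1, which are not ribosomal subunits. At an unadjusted p under 0.05, 1 was higher (RPL15, log2 change 0.20) and 1 lower (a row of RPS16, ENSSSCG00000020817, log2 change -0.12). The median level of the cytosolic set was 1240 FPKM, against 40.6 FPKM for the mitochondrial ribosomal protein genes. RPL15 lay far below that cytosolic median, at 9.66 ± 0.291 FPKM in the exosome and 8.28 ± 0.0958 FPKM in the control libraries. The median coefficient of variation within a group was 5.82% in the exosome and 4.52% in the control libraries for the mitochondrial set, 3.88% and 2.15% for the cytosolic set, and 7.67% and 5.30% for all genes. These sets differ in level, which bears on the variation.

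The messenger RNAs that the mitoribosome translates were set beside its protein genes in each library. The 9 mitochondrially encoded messenger RNAs found of 13 listed all had an unadjusted p under 0.05 with lower values in the exosome libraries (against 7.5% of all genes). Of them, 0 passed in limma, with a median log2 change of -0.34. Their median deviation from the control mean was -0.45, -0.17 and -0.44 in exosome replicates 1, 2 and 3. These messenger RNAs move together across libraries, so the 9 are not separate results. Per library, their summed level was 8.17, 10.5 and 8.07 times that of the 56 members in the exosome libraries and 11.2, 11.7 and 11.5 times in the control libraries. All 3 exosome ratios lay below the control ratios, with exosome replicate 2 the nearest to them. The members' own share of all FPKM was 0.420%, 0.381% and 0.412% in the exosome libraries and 0.393%, 0.376% and 0.374% in the control libraries, which overlap. The total FPKM, by which this share is divided, was 690258, 708280 and 711250 in the exosome libraries. In the control libraries that total was 731117, 732922 and 721273, so the totals did not overlap.

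**Figure D4:**
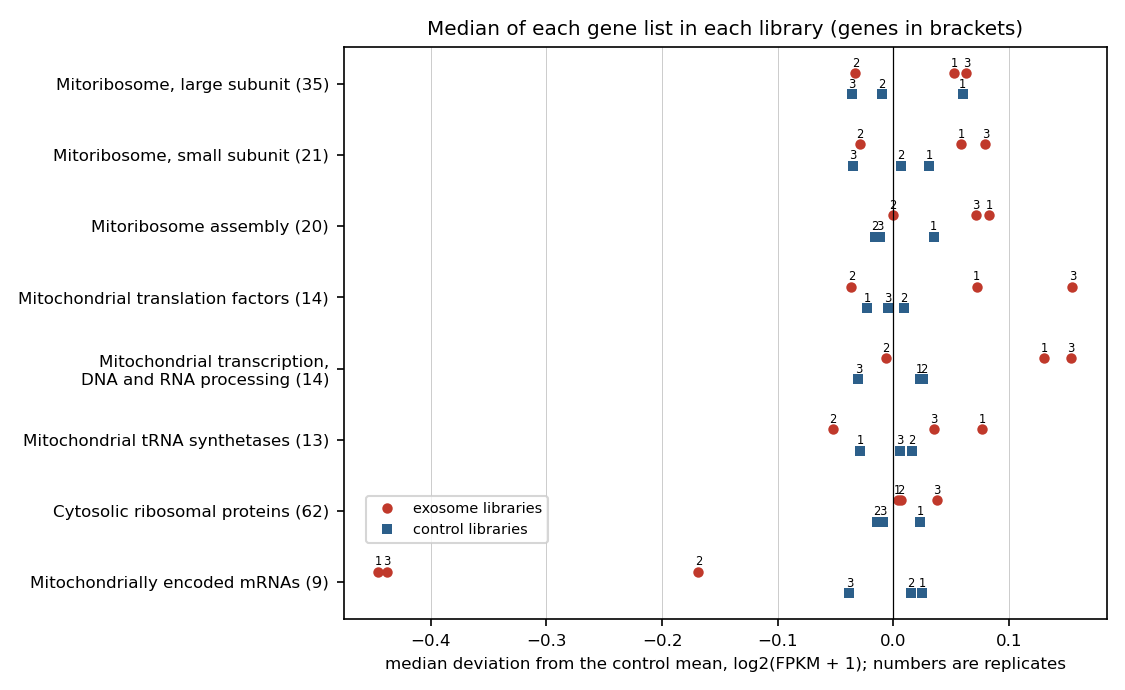
Median deviation of each gene list from the control mean in each library, on the log2(FPKM + 1) scale, with exosome libraries as red circles above control libraries as blue squares and the replicate number over each point. Both mitoribosomal subunits overlap between the groups, with exosome replicate 2 at -0.03, while the mitochondrially encoded messenger RNAs lie at -0.45, -0.17 and -0.44 in exosome replicates 1, 2 and 3, apart from the controls.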

How the data were processed

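RNA of 6 cultures was sequenced from stranded mRNA libraries, per the labels' protocols. The submitters' processing notes name bcl2fastq 1.8.4, TopHat and Cufflinks, and the build Sscrofa11.1; the annotation release, filters and remaining versions are not stated there. The values the authors deposited were read as FPKM, a unit that no header states and that follows from Cufflinks and the values themselves. The table held no counts, no gene at 0 in any library and no gene under 1 FPKM in all 6, so too few low values to recover whole reads. The sequencing depth is unknown, and no counting intervals are given.

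Values were transformed as log2(FPKM + 1). The 10846 genes whose mean reached 1 FPKM were tested, exosome against control, with limma 3.58.1 in R 4.3.3 (intensity trend, two-sided, Benjamini-Hochberg over all genes tested, threshold 0.05); simulated data were used to test the fit. Columns were matched to samples by title. Same-numbered libraries were checked for pairing through the correlation of their deviations from the group means, which was 0.16, 0.14 and -0.07 for numbers 1, 2 and 3. Differently numbered libraries ranged from -0.27 (exosome replicate 2, control replicate 1) to 0.17 (exosome replicate 2, control replicate 3). The labels do not say that the numbers pair the libraries, so they were not taken to do so.

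The members and lists were chosen with earlier results of these data known. Named members were, per subunit, the 5 with the smallest p in each direction and the 3 highest and 3 lowest by level, the S18 paralogs found, and of each other list the 2 with the smallest p. Members of the place groups, rows that share a symbol or have none, and the closest neighbours are given as descriptions. Positions are from RefSeq on Sscrofa11.1, matched by symbol. No sequence was used here. Alternatives covered the pseudocount, the filter, the scaling, the variance model, a block by replicate number and the omission of libraries. Python 3.11.15 with matplotlib 3.10.9 made the figures.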

Additional observations from a re-analysis of the deposited data

How the results depend on the processing

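None of the 56 members passed over all genes under any of the 18 alternatives of the fit, which covered the pseudocount, filter, scaling, variance model, block and omission of libraries. The genes passing among all genes, 0 as reported, numbered from 0 to 297 when 1 library was left out (297 without exosome replicate 2, 1 without control replicate 3). There were 58 after leaving out replicate 2 of each group and 1 after leaving out replicate 3 of each. With 1 library left out, the member median was lowest at 0.011 without control replicate 3 and highest at 0.063 when exosome replicate 2 was omitted, and the large-subunit median lay between 0.012 (without control replicate 3) and 0.072 (without control replicate 1); without replicate 3 of each group the member median was 0.00079. The small-subunit median lay between 0.0074 and 0.093 with 1 library left out, and the large-minus-small difference between -0.046 (without exosome replicate 2) and 0.012; after leaving out replicate 2 of each group they were 0.081 and -0.030. With a block by replicate number, 0 members passed; a balanced block cannot move a median. Adding the 4 rows named through the reference table, an alternative chosen after seeing the data, gave a member median of 0.028. The large-minus-small difference was then -0.0052. Subunits by place in the solved mitoribosome, which took out MRPS36, gave a difference of -0.0018.

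Of the values of named members under these alternatives, 478 kept their sign and 26, in 12 genes, did not, none of them passing. With quantile normalization MRPL14 was at 0.0013 and MRPS7 at 0.015. With 1 library left out, MRPL16 ranged from -0.12 to 0.018, MRPL20 from -0.025 to 0.090, MRPL28 from -0.021 to 0.072, MRPL32 from -0.067 to 0.041, MRPL40 from -0.0012 to 0.064, MRPS10 from -0.072 to 0.023, MRPS18B from -0.087 to 0.0014, MRPS36 from -0.017 to 0.096 and MRPS7 from -0.043 to 0.0072. With replicate 1 of each group left out, MRPL22 was at 0.012, MRPL4 at 0.0029 and MRPS7 at 0.023. With replicate 2 of each left out, MRPL32 was at 0.0021 and MRPS10 at 0.027, and with replicate 3 of each left out, MRPL20 was at -0.023, MRPL28 at -0.047, MRPL32 at 0.015 and MRPS36 at -0.041. The cause was not tested. FPKM without counts give no depth, and 3 libraries a group limit the precision.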
